A study of Homo sapiens with 6 samples.

Results

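The 36 aminoacyl-tRNA synthetase genes described here were found by gene symbol among the 62710 genes of the deposited table. All 36 were matched under their current symbols. They were divided by the ending of the symbol into 20 genes for the cytosolic enzymes (those ending in 1, with FARSA, FARSB and TARS3) and 16 genes for the mitochondrial enzymes (those ending in 2). The rule itself uses no measured value, although the family was chosen with earlier results of these data known, and all 36 genes had enough counts to be tested. RNA was measured in HCT116, a human colon cancer cell line, in 3 libraries of the sh-NC group and 3 of the sh-IGF2BP3 group. According to the study's methods, the sh-IGF2BP3 cells were a stable line made with a lentivirus carrying an shRNA against IGF2BP3, an RNA-binding protein that stabilizes many mRNAs, and the sh-NC cells were a stable line made in the same way with a scrambled sequence. Both lines had been selected with puromycin. A single shRNA sequence was used, so an effect of its sequence cannot be told apart from an effect of IGF2BP3 loss. The titles number the libraries of each group from 1 to 3, and the study speaks of 3 pairs of control and knockdown cells and of repeated experiments. What a pair shared, and whether the libraries came from separate cultures, is not given in the sources used here, so the p-values cover the spread between these libraries, which may be technical.

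Aminoacyl-tRNA synthetases join each amino acid to its tRNA, the step that sets which amino acid a codon is read as. The cytosol and the mitochondrion each need a set of these enzymes, and for most amino acids 2 nuclear genes encode them, while GARS1 and KARS1 supply both compartments. Several cytosolic enzymes sit together in the multi-synthetase complex, held by the scaffold proteins AIMP1, AIMP2 and EEF1E1. Many cytosolic synthetase genes are known targets of ATF4, the transcription factor of the amino acid response, which binds the C/EBP-ATF response element TGATGNAA.

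The promoter sequences are shown for the members that carry this element, which was found in more cytosolic than mitochondrial genes. RefSeq windows running from 250 bases before to 50 bases after an annotated start (GRCh38.p14) were matched for 30 of the 36 genes. AARS2, LARS1, TARS3, VARS1, VARS2 and YARS1 had no window. TGATGNAA was searched on both strands, so that its reverse complement TTNCATCA counts as well. It was present in a window of 8 of the 30 genes (26.7%), against 1217 of all 27305 genes with a window (4.46%). Of the 30 genes, 9 had more than 1 window, and by window the shares were 8 of 39 (20.5%) and 1270 of all 35116 (3.62%). These were 7 of 16 cytosolic genes and 1 of 14 mitochondrial genes. The match lay close to the start in most of them, beginning 2 bases before it in CARS1, 4 in MARS1, 13 in IARS1 and 33 in GARS1, and 2 and 14 bases after it in TARS1 and NARS1. In AARS1 and YARS2 it began 187 and 197 bases before the start. Each stretch reads 5′ to 3′ on the strand of the gene, with the 8 letters of the match in capitals.
AARS1, chr16:70289675-70289704, minus strand: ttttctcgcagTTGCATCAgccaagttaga
CARS1, chr11:3057407-3057436, minus strand: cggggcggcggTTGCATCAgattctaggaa
GARS1, chr7:30594834-30594863, plus strand: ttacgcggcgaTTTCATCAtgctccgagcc
IARS1, chr9:92293692-92293721, minus strand: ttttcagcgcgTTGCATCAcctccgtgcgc
MARS1, chr12:57488053-57488082, plus strand: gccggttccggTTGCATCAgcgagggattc
NARS1, chr18:57621804-57621833, minus strand: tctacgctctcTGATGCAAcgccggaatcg
TARS1, chr5:33440956-33440985, plus strand: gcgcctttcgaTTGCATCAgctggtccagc
YARS2, chr12:32756076-32756105, minus strand: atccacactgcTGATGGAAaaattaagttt
A match of these letters is a description of the sequence, and binding was not measured.

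The libraries held between 16146718 and 23576469 counts on genes. IGF2BP3 (ENSG00000136231; chromosome 7, 23310209 to 23470491, minus strand, GRCh38) was measured first, in CPM (counts normalized for library size). The sh-NC libraries 1, 2 and 3 had 90.3, 84.1 and 70.3 CPM, whereas the sh-IGF2BP3 libraries had 60.2, 52.3 and 55.8 CPM. The groups did not overlap, with a log2 fold change of −0.54 ± 0.181 (standard error) and an adjusted p of 0.126 in edgeR's quasi-likelihood test with Benjamini-Hochberg adjustment. Removal of each library's trends with GC content and gene length moved it to −0.20, with an adjusted p of 0.667 in edgeR's test. The groups then overlapped. The study itself reported the knockdown in its HCT116 cells by qPCR and by Western blotting. The epithelial genes EPCAM, CDH1, KRT8, KRT18 and KRT19 were between 92.4 and 2583 CPM, whereas the intestinal genes VIL1, CDX1 and LGALS4 stayed at or under 0.196 CPM. The 3 blood markers were at most 0.621 CPM and the 2 endothelial markers at most 2.66 CPM. Of the 3 fibroblast markers, COL1A2 was at 0 in all libraries and DCN at most 0.102 CPM, but COL1A1 reached 58.5 CPM.

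The cytosolic genes were expressed far above the mitochondrial ones. Levels between genes were compared as CPM per kb of the principal transcript of each gene in GENCODE 29. The median level in sh-NC was 85.1 CPM per kb over the 20 cytosolic genes and 10.6 CPM per kb over the 16 mitochondrial genes. Of the 20 genes with the highest levels, 19 were cytosolic. IARS1, the isoleucyl enzyme, led with 159 ± 11.6 CPM per kb (SD, n = 3), followed by GARS1 (glycyl) with 141 ± 20.4 and MARS1 (methionyl) with 127 ± 6.81. These 3 levels were separated by about as much as the spread between their libraries. TARS3, a second cytosolic threonyl enzyme, was the lowest of the cytosolic genes with 6.20 ± 0.424 CPM per kb, while TARS1 stood at 94.2 ± 14.8. Among the mitochondrial genes, IARS2 stood apart with 70.0 ± 4.04 CPM per kb, and HARS2 came next with 29.3 ± 2.64. The lowest was VARS2, the mitochondrial valyl enzyme, with 0.352 ± 0.162 CPM per kb, which rested on 13 to 40 counts in a library.

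**Figure D1:**
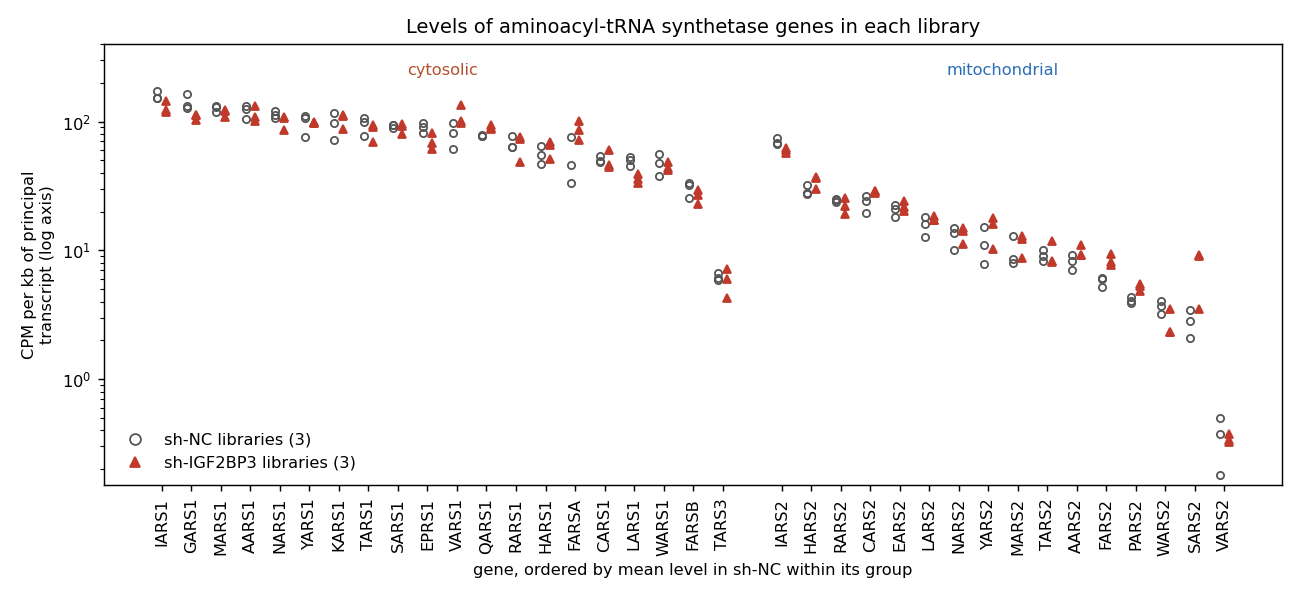
Levels of the 36 genes in CPM per kb of principal transcript on a log axis, ordered within each group by the mean in sh-NC, with open circles for the 3 sh-NC libraries and triangles for the 3 sh-IGF2BP3 libraries. The cytosolic genes other than TARS3 have higher means than all mitochondrial genes but IARS2, and VARS2 lies far below the rest.

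The deposited FPKM values gave another order within the cytosolic group, because the gene length they use was more than 2 times that of the principal transcript for 12 cytosolic and 5 mitochondrial genes. IARS1 was divided by 22.4 kb in place of 4.66 kb and LARS1 by 20.6 kb in place of 4.77 kb. On the FPKM scale the 3 highest in sh-NC were TARS1 at 97.3 ± 9.77, NARS1 (asparaginyl) at 87.7 ± 5.66 and EPRS1 (glutamyl-prolyl) at 87.1 ± 6.92 FPKM (SD, n = 3), and IARS1 was at 33.8 ± 3.16. The mitochondrial order began with IARS2 at 61.8 ± 4.67, HARS2 at 20.2 ± 0.736 and EARS2 (glutamyl) at 11.9 ± 0.638 FPKM. VARS2 was the lowest on this scale too, at 0.232 ± 0.117 FPKM. TARS3 was the lowest cytosolic gene on both scales.

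For each of the 12 amino acids served by 1 cytosolic and 1 mitochondrial gene of the list, the cytosolic gene had the higher level per kb. The median ratio of the cytosolic to the mitochondrial level in sh-NC was 8.72. It ran from 1.90 for the histidyl genes and 2.16 for the cysteinyl genes to 33.3 for the seryl genes and 227 for the valyl genes, of which the last rests on the few counts of VARS2.

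The comparison of sh-IGF2BP3 with sh-NC asks how the genes that charge tRNA stood in cells carrying the shRNA against IGF2BP3. At the cut-offs used by the study (fold change over 1.5, adjusted p below 0.05), 0 of the 36 genes were higher and 0 lower in sh-IGF2BP3 libraries by edgeR's quasi-likelihood test, as were 0% of all 16753 genes tested in either direction. At an unadjusted p under 0.05, 4 synthetase genes were higher (FARSA, VARS1, SARS2 and FARS2; 11.1%) and LARS1 was lower (2.78%), against 13.6% of all genes higher and 8.54% lower. The 3 libraries of each group did not overlap for 5 genes that were higher (QARS1, CARS2, PARS2, FARS2 and SARS2) and 5 that were lower (LARS1, GARS1, EPRS1, IARS1 and IARS2) in sh-IGF2BP3. That is 13.9% of the family in each direction, beside 13.2% and 11.0% of all genes. DESeq2 called 1 member higher, SARS2, and 0 lower, with a background of 4.29% higher and 1.05% lower among the 13087 genes to which it gave an adjusted p. In bulk RNA, fewer cells expressing a gene and less RNA of that gene per cell cannot be told apart.

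**Figure D2:**
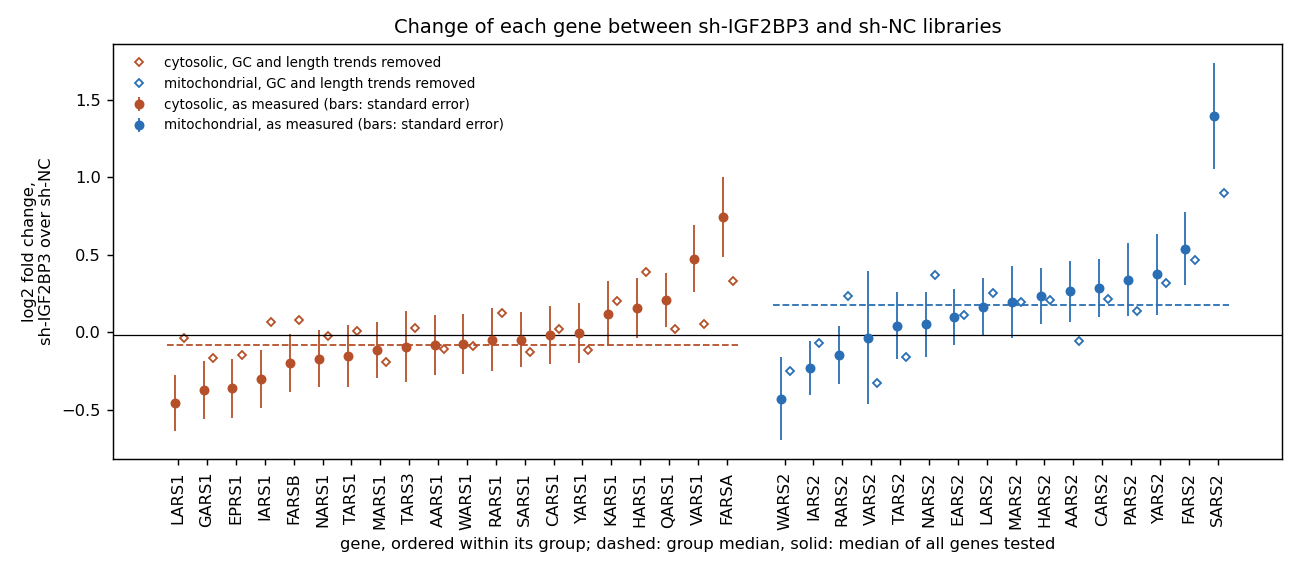
Log2 fold change of each gene, sh-IGF2BP3 over sh-NC, with filled circles and standard errors from edgeR, and open diamonds for the same value with each library's GC and length trends removed. Dashed lines are the medians of the 20 cytosolic genes (−0.08) and the 16 mitochondrial genes (0.18), and the solid line is the median of all genes tested (−0.01).

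LARS1, the cytosolic leucyl enzyme that also takes part in leucine sensing, was measured at 215, 241 and 252 CPM in sh-NC 1, 2 and 3, and at 158, 170 and 187 CPM in sh-IGF2BP3 1, 2 and 3. All sh-IGF2BP3 libraries were below all sh-NC libraries. The log2 fold change was −0.46 ± 0.180, with an adjusted p of 0.161 in edgeR's test (0.0734 to 0.973 over the alternatives). It became −0.04 once the trends with GC content and gene length were removed. GARS1 was at 349, 433 and 334 CPM in sh-NC and at 296, 269 and 296 CPM in sh-IGF2BP3. Again the groups were apart, and the log2 fold change was −0.37 ± 0.187, or −0.17 with the trends removed. The bifunctional EPRS1 was at 455, 493 and 411 CPM in sh-NC and at 309, 341 and 409 CPM in sh-IGF2BP3. Its highest sh-IGF2BP3 library lay just under its lowest sh-NC library, and the log2 fold change was −0.36 ± 0.190, or −0.15 with the trends removed. IARS1 was at 712, 801 and 705 CPM in sh-NC and at 550, 571 and 677 CPM in sh-IGF2BP3. Its log2 fold change of −0.30 ± 0.187 turned to 0.07 with the trends removed. With the trends removed the groups overlapped in LARS1, GARS1, EPRS1 and IARS1. As measured, the exact two-sided permutation test gave p = 0.1 for each of the 4 genes, which is the smallest value that 3 libraries against 3 allow.

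The cytosolic genes with positive values were fewer. FARSA, the catalytic subunit of the cytosolic phenylalanyl enzyme, was at 138, 83.0 and 60.1 CPM in sh-NC 1, 2 and 3, and at 157, 183 and 131 CPM in sh-IGF2BP3 1, 2 and 3. The sh-NC 1 library lay inside the range of the sh-IGF2BP3 libraries. The log2 fold change was 0.74 ± 0.257, with an adjusted p of 0.133 in edgeR's test (0.00339 to 0.735 over the alternatives), and it was 0.33 with the trends removed. Without sh-NC 1 it was 1.14, with an adjusted p of 0.00339, and without sh-NC 3 it was 0.48. FARSB, the gene of the partner subunit, had levels of 109, 111 and 85.8 CPM in sh-NC against 76.6, 90.6 and 99.5 CPM in sh-IGF2BP3, which overlapped, with a log2 fold change of −0.20. VARS1, the cytosolic valyl enzyme, was at 418, 350 and 265 CPM in sh-NC and at 585, 435 and 417 CPM in sh-IGF2BP3. Here the groups overlapped by a narrow margin, between sh-NC 1 and sh-IGF2BP3 3. The log2 fold change of 0.47 ± 0.216 was 0.05 with the trends removed and 0.29 without sh-NC 3. QARS1, the glutaminyl enzyme, was the steadiest of the named genes, at 217, 220 and 224 CPM in sh-NC and 263, 248 and 250 CPM in sh-IGF2BP3. Its groups did not overlap, yet the log2 fold change was only 0.21 ± 0.174, and 0.02 with the trends removed.

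SARS2, the mitochondrial seryl enzyme, had the largest log2 fold change of the 36 genes. It was measured at 7.05, 4.25 and 5.77 CPM in sh-NC 1, 2 and 3, and at 18.7, 18.9 and 7.21 CPM in sh-IGF2BP3 1, 2 and 3, from 103 to 327 counts a library. The first 2 sh-IGF2BP3 libraries stood well above the rest, while sh-IGF2BP3 3 barely exceeded sh-NC 1. The log2 fold change was 1.39 ± 0.343, with an adjusted p of 0.103 in edgeR's test (0.000399 to 0.557 over the alternatives). DESeq2 gave 1.40 with an adjusted p of 0.00958. With the trends removed the value was 0.90, with an adjusted p of 0.367 in edgeR's test. Without sh-IGF2BP3 3 it was 1.71, with an adjusted p of 0.0286, and without sh-NC 1 it was 1.58, with an adjusted p of 0.00694. SARS2 lies on chromosome 19 (38915266 to 38930763, minus strand) and shares exon sequence with other annotated genes. In GENCODE 29, 46.2% of its exon bases are also exons of AC011455.2 on the same strand, which had 0 to 3 counts in a library, and 10.8% lie opposite exons of MRPS12. By the coordinates of the deposited table, MRPS12 did not overlap SARS2. The counts of MRPS12 were 603, 560 and 302 for the sh-NC libraries, compared with 897, 932 and 635 for the sh-IGF2BP3 libraries. The use of strand in counting is not given in the sources used here, and the part of these overlaps in the result was not tested.

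FARS2, the mitochondrial phenylalanyl enzyme (chromosome 6, 5261044 to 5829192, plus strand), was at 10.2, 10.4 and 8.79 CPM in sh-NC 1, 2 and 3, and at 15.8, 13.7 and 13.1 CPM in sh-IGF2BP3 1, 2 and 3. The groups were clearly apart. The log2 fold change was 0.54 ± 0.233, with an adjusted p of 0.193 in edgeR's test (0.121 to 0.668 over the alternatives), and removal of the trends left it at 0.46. It was also the only member whose groups still did not overlap after the GC and length trends were removed, at 2.78% of the family higher and 0 lower, beside 9.87% and 5.99% of all genes. Together with SARS2 it made up the 2 members (5.56%) that were higher at an unadjusted p under 0.05 in that fit, in which 8.24% of all genes were higher and 3.18% lower. No member was lower there, at an unadjusted p under 0.05 by edgeR.

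PARS2, the mitochondrial prolyl enzyme, was at 10.2, 9.13 and 9.50 CPM in sh-NC and at 12.9, 11.2 and 12.4 CPM in sh-IGF2BP3. CARS2, the mitochondrial cysteinyl enzyme, was at 49.4, 45.4 and 36.8 CPM in sh-NC and at 54.4, 51.9 and 54.1 CPM in sh-IGF2BP3. The sh-IGF2BP3 libraries were the higher in both genes, with log2 fold changes of 0.34 ± 0.234 and 0.29 ± 0.185, which were 0.14 and 0.22 with the trends removed. IARS2 had the opposite sign, from 245, 265 and 238 CPM in sh-NC to 202, 214 and 220 CPM in sh-IGF2BP3, with a log2 fold change of −0.23 ± 0.176. Its groups did not overlap, and the value was −0.07 with the trends removed. The lowest log2 fold change of the mitochondrial genes belonged to WARS2, the tryptophanyl enzyme, with −0.43 ± 0.268 and overlapping groups. VARS2 was at 0.734, 1.53 and 2.04 CPM in sh-NC and at 1.31, 1.37 and 1.53 CPM in sh-IGF2BP3, a difference that was not detectable at this depth. In GENCODE, 22.0% of its exon bases are also exons of GTF2H4 on the same strand, which had 5 to 20 counts in a library. By the coordinates of the deposited table, ENSG00000288473 covered 100% of the span of VARS2 on the same strand. That gene had 0 to 6 counts in a library. The part of these overlaps in the counts of VARS2 was not tested.

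**Figure D3:**
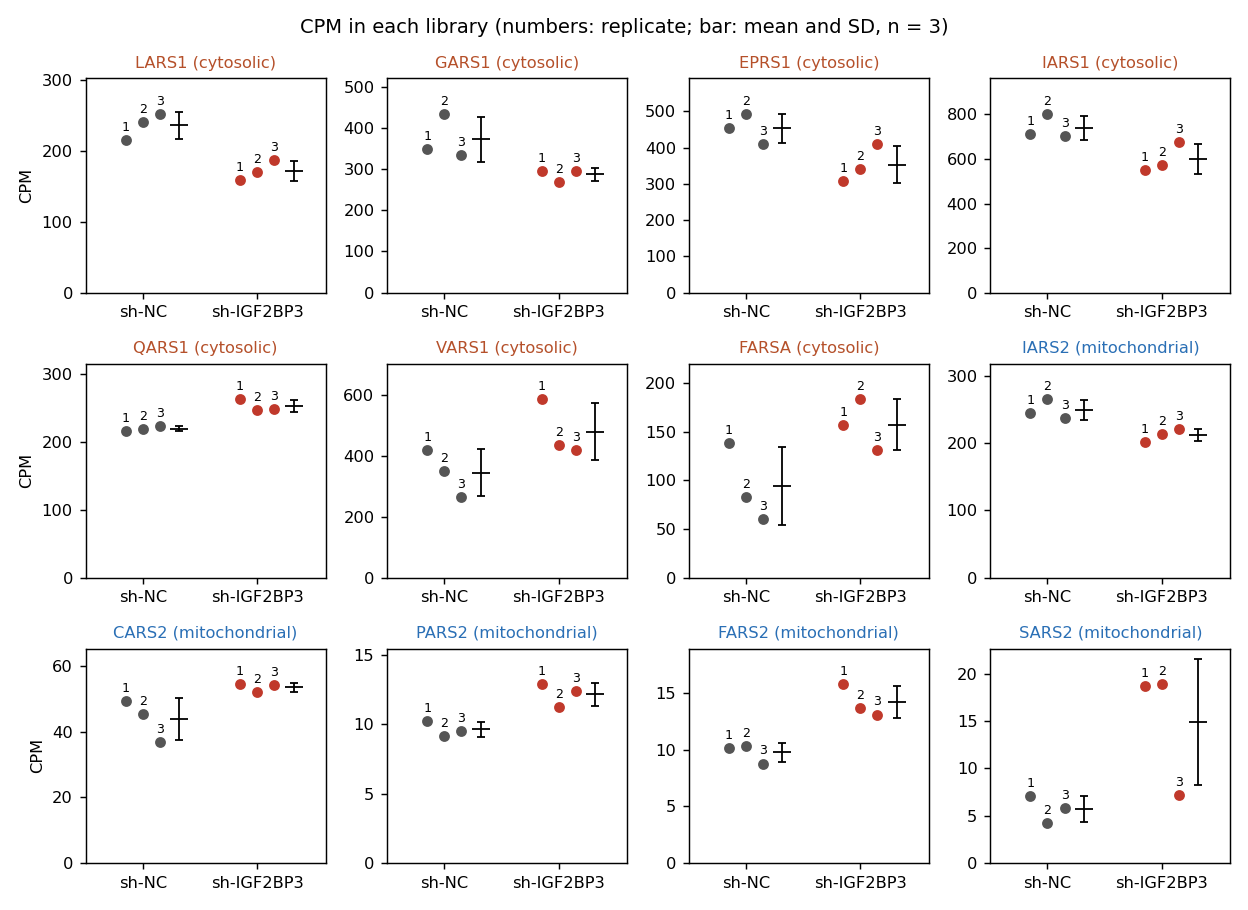
CPM in each library for the 12 genes whose groups did not overlap or whose unadjusted p was under 0.05, with the replicate number above each point and the mean and SD (n = 3) beside each group, each panel on its own axis from 0. In FARSA and VARS1 the sh-NC 1 library reaches into the range of the sh-IGF2BP3 libraries, and in SARS2 the sh-IGF2BP3 3 library lies near the sh-NC libraries.

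The remaining named genes had log2 fold changes close to the size of their errors or below it. NARS1 (log2 fold change −0.17 ± 0.184), TARS1 (−0.15 ± 0.200) and TARS3 (−0.09 ± 0.228) were negative, and EARS2 (0.10 ± 0.180) and HARS2 (0.24 ± 0.181) positive. TARS1 ranged from 335 to 459 CPM in sh-NC and from 301 to 409 CPM in sh-IGF2BP3, with wide overlap, and HARS2 from 68.9 to 81.0 CPM and from 74.6 to 93.1 CPM. The standard errors over all 36 genes ran from 0.174 to 0.430, and their median was 0.194.

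As groups, the cytosolic and mitochondrial genes lay on opposite sides of 0. Of the 20 cytosolic genes, 5 had a positive and 15 a negative log2 fold change, with a median of −0.08. Of the 16 mitochondrial genes, 12 were positive and 4 negative, with a median of 0.18, beside a median of −0.01 over all genes tested. With the GC and length trends removed, 11 of the 20 cytosolic genes and 11 of the 16 mitochondrial genes were positive, and the medians were 0.01 and 0.20, beside 0.02 for all genes. The 2 genes that serve both compartments, GARS1 and KARS1, did not set the cytosolic median, which was −0.08 without them as well.

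The same was followed library by library, taking each gene's deviation from its mean over the 6 libraries in log2 CPM. The cytosolic median minus the mitochondrial median was positive in each sh-NC library (0.08, 0.17 and 0.24) but negative in each sh-IGF2BP3 library (−0.08, −0.06 and −0.11). The groups were thus apart by this measure, and they were also apart with the trends removed, at 0.09, 0.13 and 0.11 against −0.06, −0.14 and −0.11. In sh-NC the summed CPM of the cytosolic genes exceeded that of the mitochondrial genes 6.96, 7.41 and 7.23 fold, whereas in sh-IGF2BP3 it did so 6.81, 6.32 and 6.53 fold. No p is given for these scores, because the genes were chosen with earlier results known.

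Each median taken alone differed widely between libraries of a group, and its values overlapped between the groups. The cytosolic median deviation was 0.13, 0.11 and −0.06 in sh-NC and −0.15, 0.00 and 0.05 in sh-IGF2BP3, and the mitochondrial one was 0.04, −0.06 and −0.29 against −0.06, 0.06 and 0.16. The sh-NC 3 library was low in both sets, and held the lowest value of the 6 libraries for 15 of the 36 genes, among them 9 of the 16 mitochondrial ones, compared with 24.1% of all genes tested. The cytosolic median deviation was lowest in sh-IGF2BP3 1. That library held the lowest value for 11 of the 36 genes, 8 of them cytosolic, compared with 25.5% of all genes tested. Without sh-NC 3 the cytosolic median log2 fold change was −0.16 and the mitochondrial one 0.09. Without sh-IGF2BP3 1 they were −0.06 and 0.18.

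**Figure D4:**
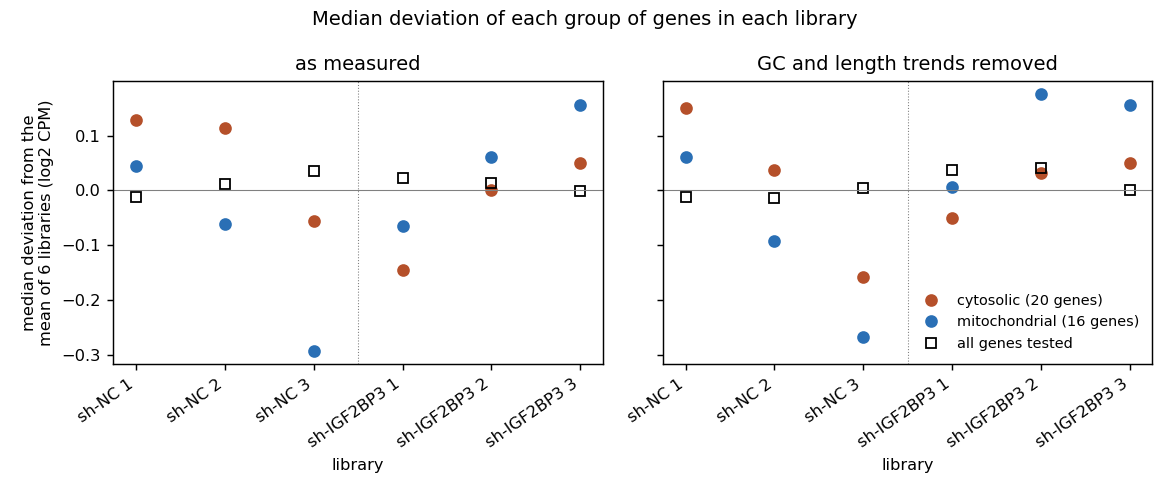
Median deviation of the 20 cytosolic genes, the 16 mitochondrial genes and all genes tested from their mean over the 6 libraries, in log2 CPM, as measured (left) and with GC and length trends removed (right). In each sh-NC library the cytosolic point lies above the mitochondrial point, and in each sh-IGF2BP3 library below it.

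Among the 12 amino acids with 1 gene for each compartment, the mitochondrial gene had the higher log2 fold change in 9. The median difference, mitochondrial minus cytosolic, was 0.26, and it was 0.15 with the trends removed, when 8 of 12 were higher. The seryl genes differed most, with −0.05 for SARS1 and 1.39 for SARS2. The leucyl genes followed, with −0.46 for LARS1 and 0.16 for LARS2. The tyrosyl genes had −0.00 (YARS1) and 0.38 (YARS2), the alanyl genes −0.08 (AARS1) and 0.26 (AARS2), the methionyl genes −0.12 (MARS1) and 0.19 (MARS2), and the cysteinyl genes −0.01 (CARS1) and 0.29 (CARS2). The gap was narrower for the asparaginyl genes, at −0.17 (NARS1) and 0.05 (NARS2), for the histidyl genes, at 0.16 (HARS1) and 0.24 (HARS2), and for the isoleucyl genes, at −0.30 (IARS1) and −0.23 (IARS2). The order was the opposite for the arginyl genes, at −0.05 (RARS1) and −0.15 (RARS2), the valyl genes, at 0.47 (VARS1) and −0.03 (VARS2), and the tryptophanyl genes, at −0.08 (WARS1) and −0.43 (WARS2). HARS1 and HARS2 are neighbours on opposite strands of chromosome 5, and 11.7% of the exon bases of HARS2 lie opposite HARS1 exons.

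The threonyl and phenylalanyl enzymes have more than 1 cytosolic gene. TARS1 (−0.15) and TARS3 (−0.09) were close to each other and below TARS2 (0.04), whereas FARS2 (0.54) lay between FARSB (−0.20) and FARSA (0.74). Both orders turned with the trends removed, when TARS2 (−0.16) was below TARS1 (0.01) and TARS3 (0.03), and FARS2 (0.46) was above FARSA (0.33).

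Other divisions of the family were described in the same way. The 7 enzymes of the multi-synthetase complex (EPRS1, IARS1, KARS1, LARS1, MARS1, QARS1 and RARS1) had a median log2 fold change of −0.12, with KARS1 (0.12) and QARS1 (0.21) positive, and the 13 other cytosolic genes had −0.08. With the trends removed these were 0.02 and 0.01. By the structural class of the catalytic domain, the class I genes had −0.05 in the cytosolic and 0.10 in the mitochondrial group, and the class II genes −0.09 and 0.26. With the trends removed these medians were 0.02 and 0.19 for class I, and 0.02 and 0.21 for class II. All 7 mitochondrial class II genes were positive, from 0.04 (TARS2) to 1.39 (SARS2), and 5 of 7 remained so with the trends removed.

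The 7 cytosolic genes with TGATGNAA or its complement in the promoter window were all negative, from −0.37 (GARS1) to −0.01 (CARS1), with a median of −0.15. The 9 cytosolic genes with a window that lacked it had a median of −0.05, 4 of them positive. With the trends removed 3 of the 7 were positive and the medians were −0.02 and 0.08. None of the 7 was at an unadjusted p under 0.05 in edgeR's test, or called by DESeq2. ATF4 itself, named here for the element and outside the naming rule, was at 452, 489 and 357 CPM in sh-NC and at 659, 592 and 425 CPM in sh-IGF2BP3. These groups overlapped, and the log2 fold change of 0.37 ± 0.212 was 0.05 with the trends removed.

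The changes of the members followed GC content, as did those of the rest of the transcriptome. Over the 36 genes, Pearson's r between the log2 fold change and the GC content of the longest transcript was 0.689 and Spearman's rho 0.699, and over the 16236 tested genes with a GC content they were 0.588 and 0.611. These correlations are across genes measured in the same 6 libraries, and genes are not independent replicates. LARS1, at 41.5% GC, and EPRS1, at 43.2%, were on the low side, and SARS2 (61.2%), FARSA (60.3%) and VARS1 (62.6%) on the high side. VARS2 (59.3%) and AARS2 (59.3%) came close to these in GC content, with log2 fold changes of −0.03 and 0.26. The median GC content was 47.7% for the cytosolic and 51.2% for the mitochondrial genes.

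The slope of the members' deviations on GC content, in log2 CPM for every 10 percentage points, came to −0.16, −0.24 and −0.20 for the sh-NC libraries, as against 0.46, 0.19 and −0.04 for sh-IGF2BP3 1, 2 and 3. It was thus steepest in sh-IGF2BP3 1, and in sh-IGF2BP3 3 it lay nearer to 0 than in any other library. Over all tested genes with a GC content, the slopes were −0.05, −0.23 and −0.21 for sh-NC 1, 2 and 3. For sh-IGF2BP3 1, 2 and 3 they were 0.35, 0.15 and −0.01. Whether the trend arose in the cells or in the preparation of the libraries was not tested.

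**Figure D5:**
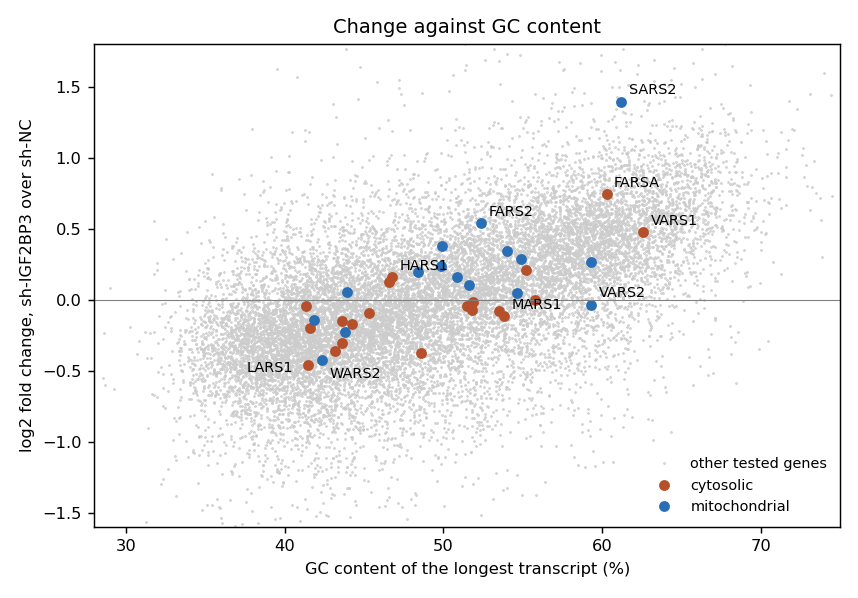
Log2 fold change of each gene against the GC content of its longest transcript in percent, with the 20 cytosolic genes in brown, the 16 mitochondrial genes in blue and the other tested genes in grey (those beyond the axes are not drawn). The members rise with GC content in the same direction as the other genes, with SARS2, FARSA and VARS1 at the upper right and LARS1 at the lower left.

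Genes that work with the synthetases were measured from a list of 28, of which 27 were tested. At an unadjusted p under 0.05 in edgeR's test, 1 of the 27 was higher and 4 were lower in sh-IGF2BP3. Of all genes, 13.6% were higher and 8.54% lower by this rule. With the GC and length trends removed, 3 were higher (GATB, DTD1 and POP1) and 1 lower (ASNS) at that p. In that fit 8.24% of all genes were higher and 3.18% lower. As measured, 0 of the 27 passed the adjusted threshold in edgeR's test or in DESeq2. The groups did not overlap for 2 that were higher and 3 that were lower, beside 13.2% and 11.0% of all genes. With the trends removed these were 2 and 2, beside 9.87% and 5.99% of all genes. Among the scaffold genes of the complex, AIMP2 was at 31.6, 26.9 and 19.5 CPM in sh-NC and at 35.4, 40.0 and 31.7 CPM in sh-IGF2BP3, narrowly apart, with a log2 fold change of 0.46 ± 0.216. AIMP1 had −0.18 ± 0.181 and EEF1E1 −0.18 ± 0.264, both with overlapping groups. The 3 values thus differed in sign, but with the GC and length trends removed all were positive, at 0.34 for AIMP2, 0.22 for AIMP1 and 0.03 for EEF1E1.

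XPOT, which exports tRNA from the nucleus, was at 241, 322 and 316 CPM in sh-NC and at 174, 195 and 229 CPM in sh-IGF2BP3, with a log2 fold change of −0.55 ± 0.195. The groups did not overlap, and with the trends removed the value was −0.24. DTD2, which clears mischarged tRNA, was at 9.20, 10.3 and 11.2 CPM in sh-NC and at 6.18, 6.47 and 7.33 CPM in sh-IGF2BP3, again apart, with −0.62 ± 0.251, or −0.40 with the trends removed. In XPOT and DTD2 the groups were still apart with the trends removed. ASNS, the asparagine synthetase and an ATF4 target, had −0.70 ± 0.255, and SEPSECS, which makes selenocysteine on its tRNA, −0.58 ± 0.258, with overlapping groups in both. With the trends removed these were −0.59 and −0.15. ASNS is 1 of the 8 listed genes of uncharged tRNA sensing, of which 6 were positive and 2 negative, with a median of 0.13. With the trends removed 4 of these 8 were positive, and the median was −0.12. The adjusted p of AIMP2, XPOT, DTD2, ASNS and SEPSECS lay between 0.137 and 0.224 in edgeR's test.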

How the data were processed

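Total RNA of 6 HCT116 libraries had been prepared with a TruSeq RNA kit. The authors deposited raw whole-number counts and FPKM values for 62710 genes on GRCh38, and the submitters' processing notes name CASAVA. The aligner, the counting tool and the use of strand are not given in the sources used here. For the 36335 genes whose length could be derived, the deposited FPKM values are the count over the library total and a gene length that was equal in all libraries within 0.1%. The counts were tested in edgeR 4.0.16 under R 4.3.3 (filterByExpr, TMM normalization, quasi-likelihood test, two-sided, Benjamini-Hochberg adjustment over 16753 genes). Log2 CPM used a prior count of 2. DESeq2 1.42.0 and limma 3.58.1 on log2(FPKM + 1) were alternatives, together with other normalizations and filters, a replicate block, each library left out in turn, and removal of each library's trends with GC content and gene length (splines with 5 degrees of freedom). Trends with the principal transcript's own GC content and length, and levels per kb of it, were added after seeing the data. Single genes were compared by exact permutation tests. The scripts were tested on simulated data. Libraries of a group differed by more than counting noise, with a chi-square of 19.8 to 61.5 per degree of freedom, so none was counted as a duplicate. Depth limits the genes of low counts, VARS2 above all.

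The members, the gene lists and the tests were chosen with earlier results of these data known. Values in every library are given for members at an unadjusted p under 0.05 or with groups that did not overlap, and the named genes further include, in each group, the 3 highest and the lowest mean FPKM in sh-NC, the scaffold genes, and other pathway genes at an unadjusted p under 0.05. For amino acids with genes for both compartments, the log2 fold changes are given for both. No run of 50 bases of a member's principal transcript occurred in that of another member. Promoter sequences are from RefSeq (GRCh38.p14).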

Additional observations from a re-analysis of the deposited data

How the results depend on the processing

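No member was called lower by edgeR, DESeq2 or limma under any alternative. The number called higher was 0, but 1 by DESeq2 (SARS2), 2 with no filter on low counts (SARS2 and FARSA) and 0 to 2 with each library left out. SARS2 and FARSA made up the 2 called without sh-NC 1, and SARS2 the 1 called without sh-IGF2BP3 3. At an unadjusted p under 0.05, the 4 higher and 1 lower became 2 and 3 with upper-quartile normalization, 2 and 4 with log2(FPKM + 1) or log2(FPKM + 0.1), 3 and 5 with log2(FPKM + 1) and no filter, 2 and 0 with the GC trend or the GC and length trends removed, and 1 and 0 with the replicate block added to the latter or with the trends of the principal transcript removed. They ranged from 1 to 5 and from 0 to 3 with each library left out. The cytosolic minus the mitochondrial median was −0.26, and −0.17 with the GC trend, −0.19 with the GC and length trends, −0.19 with these and the replicate block, −0.17 with the trends of the principal transcript removed, and −0.34 to −0.21 with each library left out. The cause of these differences was not tested.

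Of the 18 named members, 11 kept the sign of their log2 fold change in all 19 other settings. With the GC trend removed it turned to 0.026 for NARS1, 0.055 for TARS1 and 0.063 for TARS3. With the GC and length trends removed it turned to 0.068 for IARS1, 0.011 for TARS1 and 0.031 for TARS3, and with the replicate block added to 0.074, 0.023 and 0.016. With the trends of the principal transcript removed it turned to 0.012 for IARS2, 0.040 for NARS1, 0.11 for TARS1 and 0.089 for TARS3. With each library left out it ran from −0.0080 to 0.18 for EARS2, from −0.30 to 0.092 for TARS3 and from −0.33 to 0.27 for VARS2.

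The study speaks of 3 pairs, but the sources used here do not say what a replicate number shares. The libraries were not treated as paired, since same-numbered libraries did not deviate together (correlations of −0.28, −0.19 and −0.04). A replicate block turned VARS2 to 0.055, left 0 members called and gave 3 higher and 1 lower at an unadjusted p under 0.05, with medians of −0.08 and 0.19 for the cytosolic and mitochondrial genes.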
